A study of Mus musculus with 30 samples.

Results

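Livers of fasted mice that lack both CREB3L3 and PPARα were compared with livers of fasted mice that lack PPARα alone. The difference is read here as the effect of losing CREB3L3 when PPARα is already absent. The sources used here do not state whether the groups were littermates, so other differences between the lines cannot be told apart from it. The comparison rests on 7 of the 30 arrays of the series, 4 from PPARα/CREB3L3−/− mice (the combined or double knockout, DKO) and 3 from PPARα−/− mice. It covers the 21218 probe sets with exactly 1 gene symbol among the 35556 on the array, and these stand for 18820 genes.

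Gene expression in mouse liver was measured with Affymetrix Mouse Gene 1.1 ST arrays, 1 liver per array, in 4 genotypes under 2 regimens. All mice were males of about 8 weeks, and those used here were fasted for 16 h. The other regimen, a ketogenic diet for 4 days, and the fasted wild-type (WT) and CREB3L3−/− mice are used only for comparison. Both null alleles had been backcrossed onto C57BL/6 (C57BL/6J for PPARα−/−), and the 2 lines were interbred to give the DKO, so each line carries its own deletion in every tissue and not in the liver alone. All 7 livers lack PPARα. Values are log2 intensities, on which a difference of 1 is a doubling of signal. A log2 fold change is the DKO mean minus the PPARα−/− mean and is given with its standard error (SE).

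CREB3L3 (also called CREBH) is a transcription factor of liver and intestine that sits in the endoplasmic reticulum (ER) membrane and is cut by proteases of the Golgi to release its active part. It drives genes of triglyceride-rich lipoprotein handling, such as *Apoa4* and *Apoc2*, and the fasting hormone gene *Fgf21*. PPARα is the nuclear receptor that fatty acids activate in the fasted liver, where it drives fatty acid oxidation and ketone body formation, and the 2 factors share some targets.

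*Creb3l3* itself read 5.36, 4.53, 4.83 and 4.87 in the 4 DKO livers and 10.69, 10.56 and 10.52 in the 3 PPARα−/− livers. Each array thus fitted its label for this gene, with a log2 fold change of -5.70 (SE 0.15), a 51.8-fold difference. *Ppara* read 8.31, 7.25, 7.97 and 9.09 in DKO and 9.35, 9.28 and 8.96 in PPARα−/− livers. These groups overlapped, and the difference of -1.04 (SE 0.29, adjusted p = 0.068) was not called. Both groups carry the PPARα null allele, whose transcript still gives signal on this array.

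The 7 arrays had medians of 4.32 to 4.38. They correlated at 0.986 to 0.990 within DKO, at 0.988 within PPARα−/− and at 0.982 to 0.988 between the groups. Of the 3 PPARα−/− arrays, replicate 2 lay nearest to the DKO mean for 161 of the 242 lower and 181 of the 240 higher probe sets described next. DKO replicate 4 lay farthest from the PPARα−/− mean for 88 and 109 of them. Leaving out single arrays ended some calls, as stated beside the genes and lists concerned.

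Calls needed a limma P under 0.001 together with a fold beyond 1.2 in either direction. By this rule 482 probe sets with 1 symbol differed (2.27%), of which 240 were higher (1.13%) and 242 lower (1.14%) in DKO. The change exceeded 2-fold for 75 of the higher and 69 of the lower ones. Over all 35556 probe sets the split was 292 higher against 301 lower, and it became 224 against 373 when each array was centred on its median. The count of 593 fell to 286 without PPARα−/− replicate 1 and was 677 without PPARα−/− replicate 2. Counted by gene, with the brightest probe set for each, 224 genes were higher (1.19%) and 230 lower (1.22%), or 2.41% of 18820, the share against which the counts in gene lists are read. Of the 50 genes nearest to *Creb3l3* on its chromosome 0 were called, and of the nearest 200 5 were (2.5%).

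**Figure D1:**
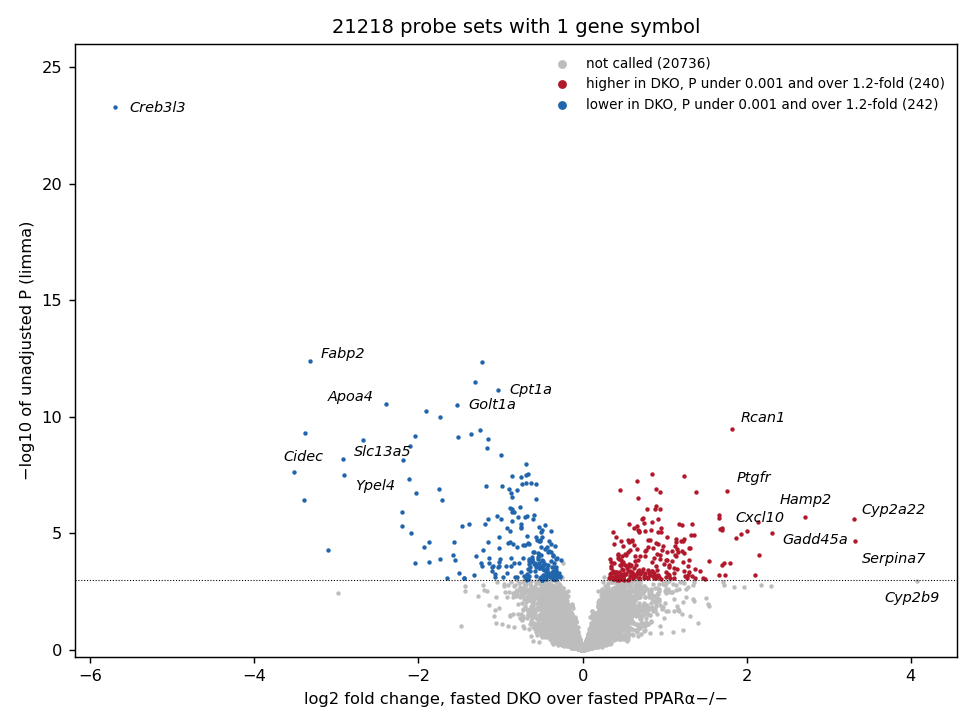
Log2 fold change of fasted DKO over fasted PPARα−/− livers against −log10 of the unadjusted P for 21218 probe sets, with the 240 called higher in red, the 242 called lower in blue and the dotted line at the P threshold. *Creb3l3* stands far from the rest at -5.70, and *Cyp2b9* has a change of 4.08 that did not pass.

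The CREB3L3 targets that the study displays were mostly lower in the DKO. Of the 15, 11 fell and 0 rose (73.3% against 2.41% of all genes), with a median log2 fold change of -1.03. Since the study chose these genes on these arrays, the count is not independent evidence of their direction. The 11 were *Cidec*, *Fabp2*, *Apoa4*, *Fads2*, *Elovl2*, *G6pc*, *Elovl5*, *Cpt1a*, *Apoc2*, *Apoa5* and *Scarb1*.

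Among genes of lipoproteins, *Apoa4* encodes an apolipoprotein of triglyceride-rich particles and has 2 probe sets. The brighter one read 10.99, 10.84, 10.81 and 10.85 in DKO and 13.39, 13.26 and 13.15 in PPARα−/− livers. Its level was 5.27-fold lower in DKO (-2.40, SE 0.22), and the dimmer probe set gave -3.39 (SE 0.35). *Apoc2*, the cofactor of lipoprotein lipase, read 10.66, 10.71, 10.72 and 11.14 in DKO and 11.83, 11.69 and 11.68 in PPARα−/−. The 2 groups did not overlap, with a change of -0.93 (SE 0.16, adjusted p = 0.00179), although DKO replicate 4 stood above the other DKO livers. *Apoa5*, which promotes clearance of plasma triglycerides, fell by 0.86 (SE 0.13), and *Scarb1*, the receptor for high-density lipoprotein, also fell by 0.86 (SE 0.11). Of 15 apolipoprotein genes 3 fell and 0 rose (20% against 2.41% of all genes), and *Apob*, the structural protein of very-low-density particles, differed by -0.01 (SE 0.06). *Apoa1* did not overlap between the groups but its difference of -0.26 (SE 0.08, adjusted p = 0.105) did not pass.

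Genes of lipid storage and fatty acid binding were among the steepest falls. *Cidec*, which encodes a lipid droplet protein that enlarges droplets, read 5.84, 5.30, 5.39 and 4.66 in DKO and 9.68, 8.02 and 8.75 in PPARα−/− livers. Every DKO liver was more than 2 units below every PPARα−/− liver, and the mean was 11.5-fold lower (-3.52, SE 0.44, adjusted p = 3.2e-05). *Fabp2*, a fatty acid binding protein best known from the intestine, read 6.45, 6.25, 6.49 and 6.67 in DKO against 9.81, 9.89 and 9.66, a 9.99-fold difference (-3.32, SE 0.25). *Mfsd2a*, a transporter of lysophospholipids, read 4.15, 3.68, 3.57 and 4.06 in DKO against 5.63, 6.68 and 5.41 (-2.04, SE 0.47, adjusted p = 0.0209), a call that was lost without PPARα−/− replicate 2. *Dgat2*, which catalyses the last step of triglyceride synthesis, went the other way, reading 12.13, 12.16, 12.09 and 11.92 in DKO and 11.12, 11.51 and 11.39 in PPARα−/− (0.74, SE 0.12, adjusted p = 0.000931). Of the 22 measured genes of the lipid droplet list, these were the only called members, 2 lower and 1 higher. The perilipin gene *Plin2* differed by -0.13 (SE 0.16).

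The genes that build polyunsaturated fatty acids fell in part. *Fads2*, the delta-6 desaturase, read 8.92, 8.17, 8.76 and 9.56 in DKO and 10.97, 11.21 and 10.72 in PPARα−/−, a 4.32-fold difference. *Elovl2*, an elongase of long polyunsaturated chains, read 10.28, 10.32, 10.24 and 10.31 against 12.47, 12.15 and 11.97, a 3.75-fold difference. *Elovl5*, the elongase acting earlier in the same route, read 10.45, 10.19, 9.99 and 10.56 against 12.25, 12.06 and 11.81, a 3.35-fold difference. In all 3 genes the DKO livers lay entirely below the PPARα−/− livers, with adjusted p values of 4.81e-05, 2.59e-07 and 4.01e-07. The delta-5 desaturase gene *Fads1* differed by -0.46 (SE 0.16, adjusted p = 0.2) and did not pass. Of the 12 genes on this list 3 fell and 0 rose.

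Among genes of glucose and fatty acid use, *Cpt1a*, the gate of mitochondrial fatty acid oxidation, read 10.59, 10.55, 10.62 and 10.73 in DKO and 11.87, 11.55 and 11.53 in PPARα−/−. This 2.04-fold difference (-1.03, SE 0.09, adjusted p = 5.01e-08) was the only fall among 20 genes of mitochondrial fatty acid oxidation. *G6pc*, the catalytic subunit of glucose-6-phosphatase, read 9.16, 9.85, 9.76 and 10.13 against 12.10, 10.90 and 11.79 (-1.87, SE 0.43, adjusted p = 0.02). Its groups did not overlap, but the call was lost without PPARα−/− replicate 1, without PPARα−/− replicate 3 or without DKO replicate 1. *Ldha*, which encodes a lactate dehydrogenase subunit, read 11.14, 11.06, 11.18 and 11.32 against 12.00, 11.88 and 11.87 (-0.74, SE 0.10). The remaining 17 genes of glucose production and sensing did not pass, among them *Pck1*, the rate-limiting enzyme of gluconeogenesis. *Pck1* read 12.53, 12.28, 12.39 and 12.57 in DKO and 12.82, 12.76 and 12.64 in PPARα−/− livers. Its groups did not overlap, but the difference of -0.30 did not pass with an SE of 0.38, pooled over all 30 arrays.

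*Fgf21*, the fasting hormone gene, was low in both groups. It read 4.41, 4.46, 3.74 and 3.57 in DKO and 3.52, 4.13 and 3.55 in PPARα−/− livers, close to or below the array medians. The difference of 0.31 (SE 0.48, adjusted p = 0.922) did not pass, whereas fasted CREB3L3−/− livers were 2.70 log2 units below fasted WT livers (adjusted p = 0.00141). The interaction of 3.01 between these 2 effects had an adjusted p of 0.0557.

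**Figure D2:**
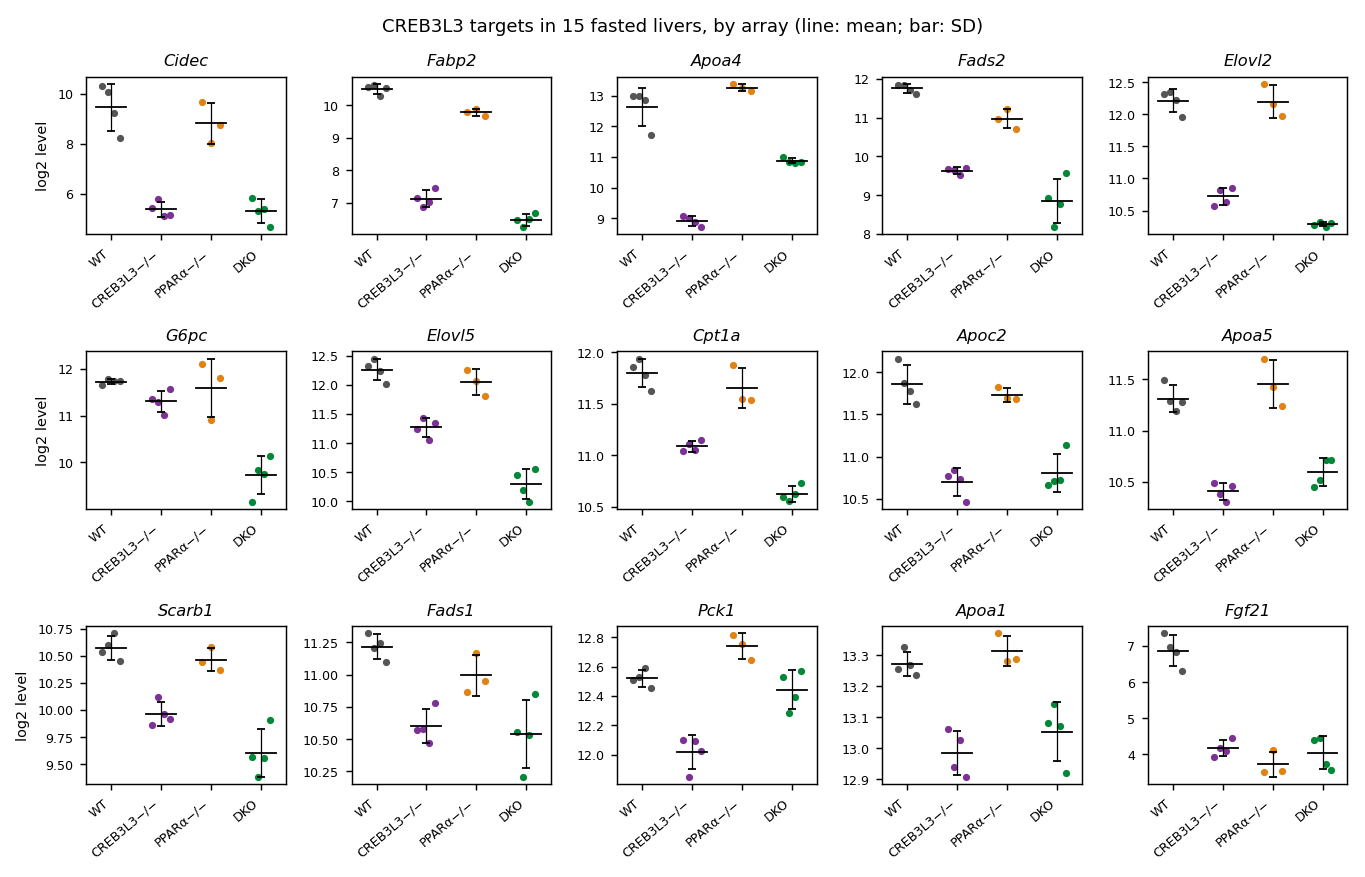
Log2 level of the 15 CREB3L3 targets displayed by the study in each of the 15 fasted livers, by genotype, with the mean as a line and the SD as a bar. For the first 11 genes, which were called, the green DKO points lie below the orange PPARα−/− points. They also do so, by smaller margins, for *Fads1*, *Pck1* and *Apoa1*, which were not called, whereas *Fgf21* is low in PPARα−/− and DKO alike.

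Several of the largest decreases were outside these lists, and most of their known roles lie outside the liver. *Cntnap1*, a membrane protein of myelinated nerve, read 4.22, 4.16, 3.85 and 4.61 in DKO and 7.71, 7.42 and 7.69 in PPARα−/− livers (-3.40, SE 0.50, adjusted p = 0.000211). *Aqp4*, a water channel, read 3.54, 3.62, 3.81 and 4.05 against 6.00, 7.30 and 5.98 (-2.68, SE 0.29). *Hykk*, a hydroxylysine kinase, read 8.18, 7.81, 8.04 and 9.02 against 10.65, 10.32 and 10.36 (-2.18, SE 0.26). The DKO values of *Cntnap1* and *Aqp4* were near the array medians, and *Hykk* stayed well above them. *Agap2*, an activator of GTP hydrolysis by ARF proteins, fell by 2.20 (SE 0.38) and *Cgref1*, a secreted growth regulator, by 2.20 (SE 0.35).

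Of the 242 lower probe sets, the DKO mean was the nearer to the WT mean for 91 and the PPARα−/− mean for 151. Some named genes read higher in PPARα−/− livers than in the other fasted groups, with a DKO mean within 1 unit of the WT mean. *Ypel4*, of the yippee family, read 3.68, 3.63, 3.52 and 3.62 in DKO and 7.48, 5.31 and 6.75 in PPARα−/− livers (-2.90, SE 0.37, adjusted p = 3.99e-05). Its mean was 3.66 ± 0.26 (SD, n = 4) in WT and 3.62 ± 0.27 (SD, n = 4) in CREB3L3−/− livers, so only the PPARα−/− group stood apart. *Slc13a5*, the citrate transporter of the hepatocyte membrane, read 3.56, 3.50, 3.63 and 3.43 in DKO and 6.43, 6.89 and 6.04 in PPARα−/− (-2.92, SE 0.34, adjusted p = 1.15e-05). Its WT mean was 4.36 ± 0.35 (SD, n = 4), with single WT livers at 3.99 to 4.77. CREB3L3−/− livers read 2.97 to 3.35, so they and the DKO livers lay below every WT liver. Chosen after their values were seen, *Gldn* (-1.88, SE 0.36), *Fam107a* (-1.94, SE 0.39) and *Adgrf1* (-1.73, SE 0.38) also had their highest fasted mean in PPARα−/− livers. The spread within PPARα−/− was wide in some of them: *Gldn* read 6.48, 4.07 and 6.05 in PPARα−/− livers, and its replicate 2 barely exceeded the highest DKO liver at 4.06. *BC018473*, a locus with no known function stated here, read 8.09, 7.23 and 2.83 in PPARα−/− and 2.73 to 3.31 in DKO. Its call of -3.11 (SE 0.64) therefore rested on 2 of the 3 PPARα−/− livers.

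Transport between ER and Golgi held a group of smaller but tight decreases. A list of 57 measured genes for the COPII and COPI vesicle coats, their cargo receptors and Golgi transport was drawn up after the values had been seen, so its count is a description. Of these, 9 fell and 0 rose (15.8% against 2.41% of all genes), and the median was -0.11. *Golt1a*, a Golgi transport protein, read 7.38, 7.23, 7.18 and 7.31 in DKO and 9.02, 8.54 and 8.84 in PPARα−/− livers (-1.53, SE 0.14, adjusted p = 1.6e-07). It was the only member to change more than 2-fold. *Sec16b*, which organises the sites where COPII vesicles leave the ER, read 8.65, 8.49, 8.66 and 9.04 against 9.43, 9.43 and 9.53 (-0.75, SE 0.13). *Sec23a*, of the inner COPII coat, read 9.14, 9.29, 9.21 and 9.26 against 10.10, 9.65 and 9.76 (-0.61, SE 0.10). *Sec13*, of the outer COPII coat, fell by 0.44 (SE 0.09), and *Tmed4*, a cargo receptor, by 0.69 (SE 0.09). The COPI coat subunits *Copb1* and *Copb2* fell by 0.50 (SE 0.09) and 0.34 (SE 0.08), and the small GTPases *Arf4* and *Rab6a* by 0.47 (SE 0.11) and 0.36 (SE 0.10). All 9 had DKO livers below the lowest PPARα−/− liver. By contrast 0 of 31 ER chaperones and other secretory genes were called, with a median of 0.04. The count of 9 became 5 when only the 7 arrays were fitted. In fasted CREB3L3−/− against WT livers 3 of the 57 genes fell and 0 rose. Fasted WT livers overlapped the DKO livers for *Sec13*, *Copb1*, *Copb2*, *Arf4* and *Rab6a*. They lay above the DKO livers for *Golt1a*, *Sec16b*, *Sec23a* and *Tmed4*.

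Promoters of the decreased genes were searched on both strands for TGACGT, the core of the cyclic AMP response element bound by factors of the CREB and ATF families. The windows were those of RefSeq on GRCm38.p6, from 250 bases before to 50 after the start of transcription. Of 230 lower genes 186 had such a window, as had 171 of the 224 higher genes. TGACGT was present in 15.6% of the lower, 8.77% of the higher and 10.4% of all 14739 windows. The full palindrome TGACGTCA, which contains it, was present in 5.91%, 3.51% and 2.77%. For TGACGT the 95% interval was 10.7% to 21.6% in the lower and 4.99% to 14.1% in the higher genes. Outside the transport list TGACGT was present in 13.6% of 177 lower genes (8.88% to 19.5%), and the palindrome in 6.21% (3.14% to 10.8%). Genes also lower in fasted CREB3L3−/− against WT livers had 53 windows. Of these 11.3% held TGACGT (4.27% to 23%) and 5.66% the palindrome (1.18% to 15.7%). A further form, TGACGTGG, known as the unfolded protein response element, was added after the matches had been seen. It was present in 2.69% of the lower (95% interval 0.878% to 6.16%), 0% of the higher and 0.923% of all windows. Genes also lower in CREB3L3−/− livers held it in 0% of their 53 windows. Outside the transport list it was present in 0.565% of 177 lower genes, so the transport genes made up most of its occurrences. Among the lower genes it was present in *Sec16b*, in the coat genes *Copb1* and *Copb2* and in *Ypel4*, among others. In the transport list as a whole it was present in 8 of 51 windows (15.7%), and 4 of these 8 genes were called. A match is a match of letters and does not show binding.

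The 4 windows of these genes with TGACGTGG are shown first, followed by *Elovl5* and *Ldha* as genes of the lipid and glucose lists with the palindrome. Capitals mark the 8 letters of the element, which reads CCACGTCA where it lies on the other strand. Each run is 30 bases on the strand of the gene in GRCm38.p6.
Ypel4, chr2:84734005-84734034, plus strand: ccagccctgctcTGACGTGGgaggtgaggg
Sec16b, chr1:157506740-157506769, plus strand: gttctgtgtggcTGACGTGGcacggcagtt
Copb1, chr7:114254689-114254718, minus strand: ccgcccccttCCACGTCAgccaaggacttg
Copb2, chr9:98563714-98563743, plus strand: cccggaagttCCACGTCAgtgggttggccg
Elovl5, chr9:77917356-77917385, plus strand: gccgcgccattgTGACGTCAcggtcagccc
Ldha, chr7:46845780-46845809, plus strand: gggctcccactcTGACGTCAgcgcggagct

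The largest increases in DKO included genes of blood proteins, of stress and of signalling. *Serpina7*, which encodes thyroxine-binding globulin, read 8.98, 8.54, 9.20 and 9.47 in DKO and 4.16, 7.84 and 5.19 in PPARα−/− livers (3.32, SE 0.64, adjusted p = 0.00478). The groups did not overlap, but PPARα−/− replicate 2 lay within 1 unit of the lowest DKO liver. *Rcan1*, an inhibitor of calcineurin, read 9.45, 9.37, 9.38 and 8.70 against 7.11, 7.98 and 7.14 (1.82, SE 0.18, adjusted p = 1.17e-06). *Gadd45a*, a growth arrest gene of the stress response, read 7.12, 8.43, 7.90 and 6.05 against 4.29, 5.15 and 5.76 (2.31, SE 0.42, adjusted p = 0.00253). *Ptgfr*, the receptor for prostaglandin F2α, read 5.54, 5.09, 4.12 and 4.02 against 2.66, 3.44 and 2.68 (1.76, SE 0.25). *Rcan1*, *Gadd45a* and *Ptgfr* were high only in the DKO among the fasted groups: their WT means were 7.33, 4.79 and 2.63 and their CREB3L3−/− means 7.42, 4.34 and 2.81. The calls of *Serpina7*, *Gadd45a* and *Ptgfr* were lost when only the 7 arrays were fitted.

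*S100g*, a calcium-binding protein, read 6.96, 5.89, 5.94 and 4.81 in DKO and 3.33, 4.70 and 3.37 in PPARα−/− (2.11, SE 0.54, adjusted p = 0.0462). Its highest PPARα−/− liver was only just below its lowest DKO liver, and the call was lost without any 1 of 5 arrays. *Slc17a8*, a vesicular glutamate transporter, read 6.06, 5.94, 5.90 and 6.15 against 3.60, 4.04 and 3.97 (2.14, SE 0.36). WT livers read 5.29 to 6.78 for this gene, a range that holds the DKO livers. CREB3L3−/− livers read 7.27 to 7.68, above every WT liver. *Serpinb1a*, a protease inhibitor, rose by 1.87 (SE 0.35), and *Mme*, the membrane peptidase neprilysin, by 1.79 (SE 0.41). WT livers read 6.56 to 6.83 for *Serpinb1a*, below the DKO, and 7.53 to 8.06 for *Mme*, within the DKO range. In CREB3L3−/− livers *Serpinb1a* read 7.38 to 8.84, above every WT liver, and *Mme* 6.70 to 7.97, overlapping WT. The call of *Mme* was lost without PPARα−/− replicate 1 or without DKO replicate 4. When only the 7 arrays were fitted, the calls of *S100g*, *Serpinb1a* and *Mme* were lost. Of the 240 higher probe sets, the DKO mean was the nearer to the WT mean for 71 and the PPARα−/− mean for 169. The noncoding RNA *Meg3*, chosen after its values were seen, read 8.67, 8.36, 9.09 and 8.89 against 7.13, 7.59 and 6.45 (1.70, SE 0.30). Its DKO level was also above WT (6.90) and CREB3L3−/− (6.22).

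**Figure D3:**
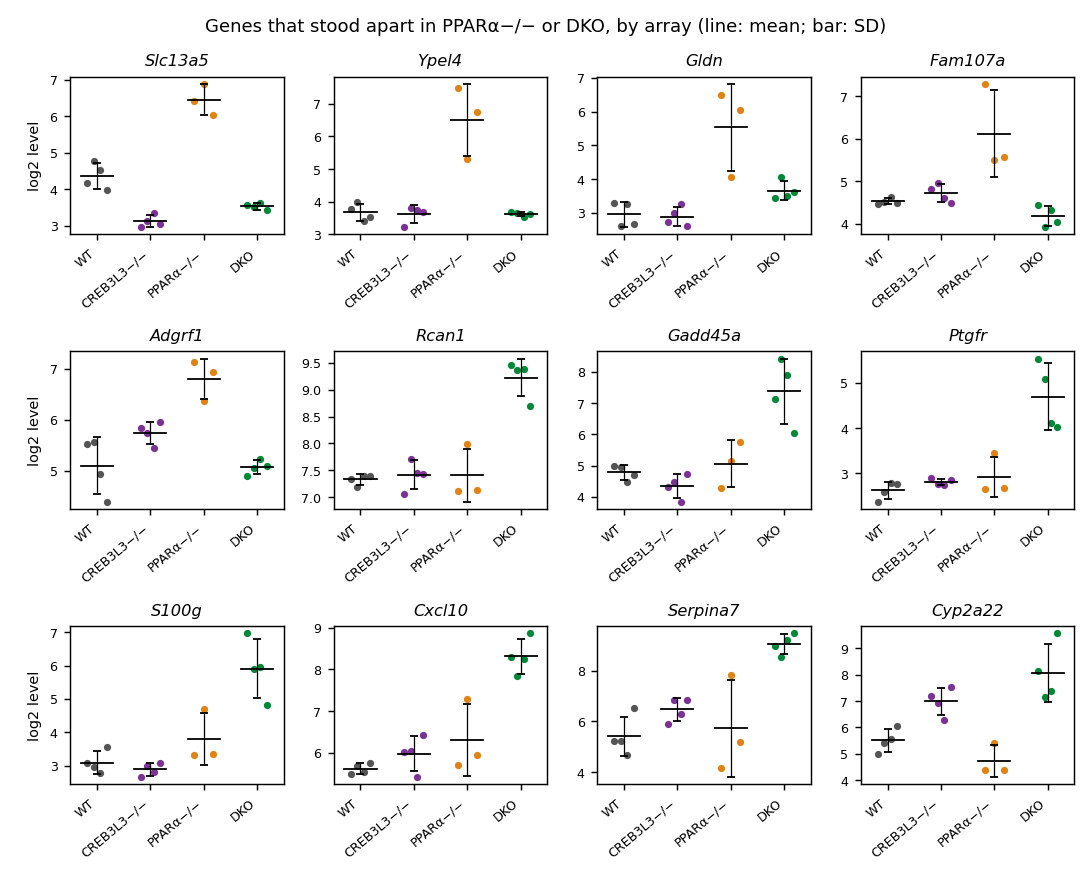
Log2 level of 12 genes in each of the 15 fasted livers by genotype, with the mean as a line and the SD as a bar. The first 5 are high in PPARα−/− and low in DKO, and *Rcan1*, *Gadd45a*, *Ptgfr*, *S100g* and *Cxcl10* are high in DKO alone, with PPARα−/− replicate 2 the nearest of its group to DKO in all 5 but *Gadd45a*.

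Genes driven by PPARα were partly higher in the DKO, although both groups lack that receptor. Of 20 measured PPARα targets drawn by the study, 5 rose and 0 fell (25% against 2.41%), with a median of 0.16. They were *Vnn1* (1.37, SE 0.36), which makes pantothenate from pantetheine, *Acaa1b* (0.92, SE 0.23), a peroxisomal thiolase, *Retsat* (0.90, SE 0.23), the retinol saturase, *Hadh* (0.66, SE 0.15), of mitochondrial oxidation, and *Acsl5* (0.38, SE 0.10), an acyl-CoA synthetase. *Vnn1* read 5.77, 4.98, 5.46 and 7.10 in DKO and 3.44, 4.70 and 5.25 in PPARα−/− livers, so the groups overlapped, and both were far below the WT mean of 10.41. *Retsat* read 10.29, 9.47, 9.80 and 10.71 against 8.70, 9.70 and 9.09, against a WT mean of 12.36. *Acaa1b* did not overlap, at 10.19, 9.99, 10.00 and 10.20 against 8.59, 9.79 and 9.16. These calls were not stable: 0 of the 5 passed without PPARα−/− replicate 1 or without DKO replicate 4, and 1 passed with arrays centred on their medians.

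Cholesterol synthesis genes leaned upwards. Of 20 genes of cholesterol synthesis 19 had a positive fold change, with a median of 0.78 against -0.01 over all genes, but 2 passed. *Hmgcs1*, which starts the mevalonate pathway, read 10.12, 9.96, 10.18 and 9.90 in DKO and 8.24, 9.31 and 8.70 in PPARα−/− livers (1.29, SE 0.30, adjusted p = 0.025). *Sc5d*, a late sterol desaturase, read 11.27, 11.21, 11.27 and 11.43 against 10.32, 10.93 and 10.55 (0.70, SE 0.15). Values that missed the threshold were *Msmo1* at 1.36 (SE 0.37), *Fdps* at 1.06 (SE 0.29) and *Stard4* at 1.03 (SE 0.28). The count of called genes was 8 when only the 7 arrays were fitted, 4 without PPARα−/− replicate 2 and 0 without PPARα−/− replicate 1. With PPARα present, in fasted CREB3L3−/− against WT livers, 11 of the 20 genes rose and 0 fell, with a median of 1.05.

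Of 8 genes of ketone body metabolism 3 rose and 0 fell (37.5% against 2.41% of all genes). *Slc16a6*, which exports ketone bodies from hepatocytes, read 7.46, 7.99, 7.90 and 6.88 in DKO and 6.04, 6.60 and 6.57 in PPARα−/− (1.15, SE 0.28). *Slc16a7*, another monocarboxylate carrier, rose by 0.85 (SE 0.19), and *Aacs*, which uses acetoacetate for lipid synthesis, by 1.29 (SE 0.32). None of the 3 passed without PPARα−/− replicate 1, and 1 passed without DKO replicate 4. Among 19 genes of fatty acid and triglyceride synthesis 2 rose, *Scd1* (1.37, SE 0.33), the main desaturase of saturated fatty acids, and *Me1* (1.14, SE 0.22), which supplies NADPH. *Me1* read 10.16, 9.85, 10.02 and 10.10 against 8.45, 9.90 and 8.33, so that PPARα−/− replicate 2 equalled the DKO livers. *Srebf1*, a master regulator of this pathway, differed by -0.02 (SE 0.23). The call of *Scd1* was lost without PPARα−/− replicate 1, DKO replicate 1 or DKO replicate 4.

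Bile acid genes changed in both directions, with 3 of 25 higher and 1 lower. *Nr1h4*, the bile acid receptor FXR, read 10.15, 10.24, 10.15 and 10.22 in DKO and 9.47, 9.88 and 9.47 in PPARα−/− livers (0.58, SE 0.12, adjusted p = 0.00905). The exporters *Abcc4* and *Abcc3* of the basolateral membrane rose by 1.30 (SE 0.26) and 0.48 (SE 0.11). *Cyp7b1*, an enzyme of the alternative route of bile acid synthesis, fell by 1.51 (SE 0.38, adjusted p = 0.041), whereas *Cyp7a1*, the rate-limiting enzyme of the classical route, differed by 0.24 (SE 0.86). The calls of *Cyp7b1* and *Abcc3* were lost without PPARα−/− replicate 1, PPARα−/− replicate 3 or DKO replicate 4, and that of *Cyp7b1* also without DKO replicate 1.

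The carboxylesterases, which hydrolyse lipid esters and drugs, were listed after their values had been seen. Of 16 measured genes 4 rose and 0 fell (25% against 2.41% of all genes). *Ces1g* read 10.62, 10.00, 10.18 and 11.10 in DKO and 8.13, 9.44 and 8.66 in PPARα−/− (1.73, SE 0.45), *Ces1d* rose by 1.69 (SE 0.40), *Ces1f* by 1.47 (SE 0.39) and *Ces2e* by 0.69 (SE 0.18). Genes of the Ces1 cluster are alike in sequence, so their probe sets may share signal. The count was 0 without any 1 of PPARα−/− replicate 1, PPARα−/− replicate 3 or DKO replicate 4.

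Some genes known for higher levels in female than in male mouse liver read highest in DKO replicate 4, although all mice were males. *Cyp2a22*, a cytochrome P450, read 8.14, 7.15, 7.36 and 9.56 in DKO and 4.41, 5.43 and 4.38 in PPARα−/− livers (3.31, SE 0.55, adjusted p = 0.000985). *Hamp2*, a paralog of the iron hormone gene *Hamp*, read 6.34, 5.72, 6.20 and 8.32 against 4.70, 3.91 and 3.21 (2.71, SE 0.44, adjusted p = 0.000843). Both calls held without DKO replicate 4, but that of *Hamp2* was lost when only the 7 arrays were fitted. *Cyp2b9* read 9.06, 7.20, 9.17 and 11.52 against 4.58, 5.91 and 4.98. Its change of 4.08 had an SE of 1.11 (adjusted p = 0.0622), and it was not called. *Cyp2b13* read 3.25, 2.69, 3.82 and 6.63 against 2.34, 2.14 and 2.27 and was not called either. In the list of growth hormone, IGF1 and sex-biased genes 1 of 29 was called, *Cyp7b1*, which is male-biased, whereas 0 were without PPARα−/− replicate 1 and 5 were without DKO replicate 2.

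Genes of inflammation and interferon response leaned upwards. *Cxcl10*, a chemokine induced by interferon, read 8.29, 7.84, 8.25 and 8.86 in DKO and 5.70, 7.29 and 5.95 in PPARα−/− livers (2.0, SE 0.36, adjusted p = 0.00221). *Cxcl9*, a related chemokine, rose by 1.49 (SE 0.40), with PPARα−/− replicate 2 at 7.85 within the DKO range. Of 26 interferon-stimulated genes 24 had a positive fold change with a median of 0.64, but 3 passed: *Ifit3* (1.28, SE 0.34), *Oasl1* (1.11, SE 0.28) and *Gbp2* (1.02, SE 0.25). That count was 7 without PPARα−/− replicate 2 and 0 without any 1 of PPARα−/− replicate 1, PPARα−/− replicate 3 or DKO replicate 4. Of 27 genes of inflammatory signalling 2 rose, *Cxcl10* and *Cxcl9*, and the call of *Cxcl9* was lost without any 1 of 5 arrays and under both other scalings. The 15 macrophage markers had a mean level of 6.54 to 6.88 in DKO and 6.58 to 6.66 in PPARα−/− livers, with 0 called, and their part in these results was not tested.

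Acute phase genes did not follow, and 2 of 26 fell. *Lrg1*, a secreted glycoprotein, read 9.94, 10.17, 10.45 and 9.87 against 10.92, 10.69 and 11.42 (-0.90, SE 0.18), and *Serpina3n* fell by 0.43 (SE 0.11), a call lost without any 1 of 5 arrays. *Slc39a14*, a zinc and iron importer, rose by 0.56 (SE 0.11), and *Hamp* differed by 0.42 (SE 0.30). In the integrated stress response list, *Gadd45a* was the only one of 28 genes called, but 7 were called without DKO replicate 4. *Atf3* and *Nupr1* had larger errors, with 2.17 (SE 0.62) and 2.30 (SE 0.66), and were not called, and *Asns*, a standard target of ATF4, differed by 0.07 (SE 0.62). Among 10 genes of the CREB3 and ATF6 families, their proteases and ER stress sensors, *Ern1*, the sensor IRE1α, rose by 0.80 (SE 0.20), and *Crtc2*, a coactivator of CREB, fell by 0.37 (SE 0.09). The call of *Ern1* was lost without any 1 of 5 arrays and that of *Crtc2* without any 1 of 6. *Atf6*, another factor bound to the ER membrane, differed by 0.38 (SE 0.12, adjusted p = 0.142).

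Other lists held few calls. Of 29 transferases of glutathione, glucuronide and sulfate 3 rose, *Gstt1* (0.85, SE 0.14), *Mgst3* and *Sult1c2*, and 1 fell, *Sult5a1* (-1.58). Of 21 NRF2 antioxidant genes 2 rose, the exporters *Abcc3* and *Abcc4*. *Mcee*, of propionyl-CoA breakdown, rose by 0.68, *Suclg2*, of the TCA cycle, by 0.41, and *Ppm1k*, a phosphatase of branched chain amino acid breakdown, fell by 0.78. Leaving out PPARα−/− replicate 1 ended the calls of *Mgst3*, *Sult1c2*, *Sult5a1*, *Abcc3*, *Suclg2*, *Ppm1k* and *Miga2*, and leaving out DKO replicate 4 those of *Mgst3*, *Sult1c2*, *Abcc3* and *Suclg2*. The calls of *Mgst3* and *Sult1c2* were also lost without PPARα−/− replicate 3, DKO replicate 1 or DKO replicate 3. Those of *Sult1c2* and *Ppm1k* were lost without DKO replicate 2. In a list of 32 genes lower in all 3 fasted knockouts, which had been chosen on these arrays, 4 fell, *Mfsd2a*, *Tram2*, *Miga2* and *Ldha*.

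Several lists had 0 members called: 33 subunits of respiratory complex I, 66 cytosolic ribosomal proteins, 32 ribosome biogenesis factors, 30 genes of mitosis and DNA replication, 16 p53 targets, 17 clock genes and 34 coagulation and complement genes. Their medians lay between -0.04 and 0.13. All 10 lists of cell type markers also had 0 members called. The 6 hepatocyte markers averaged 13.02 to 13.16 in DKO and 13.15 to 13.24 in PPARα−/− livers. Of the 7 cholangiocyte markers 6 were below the array medians, as were 8 of 9 markers of adipocytes and pancreas and 9 of 12 of T and NK cells. In bulk tissue a change in cell number and a change of RNA per cell cannot be told apart.

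**Figure D4:**
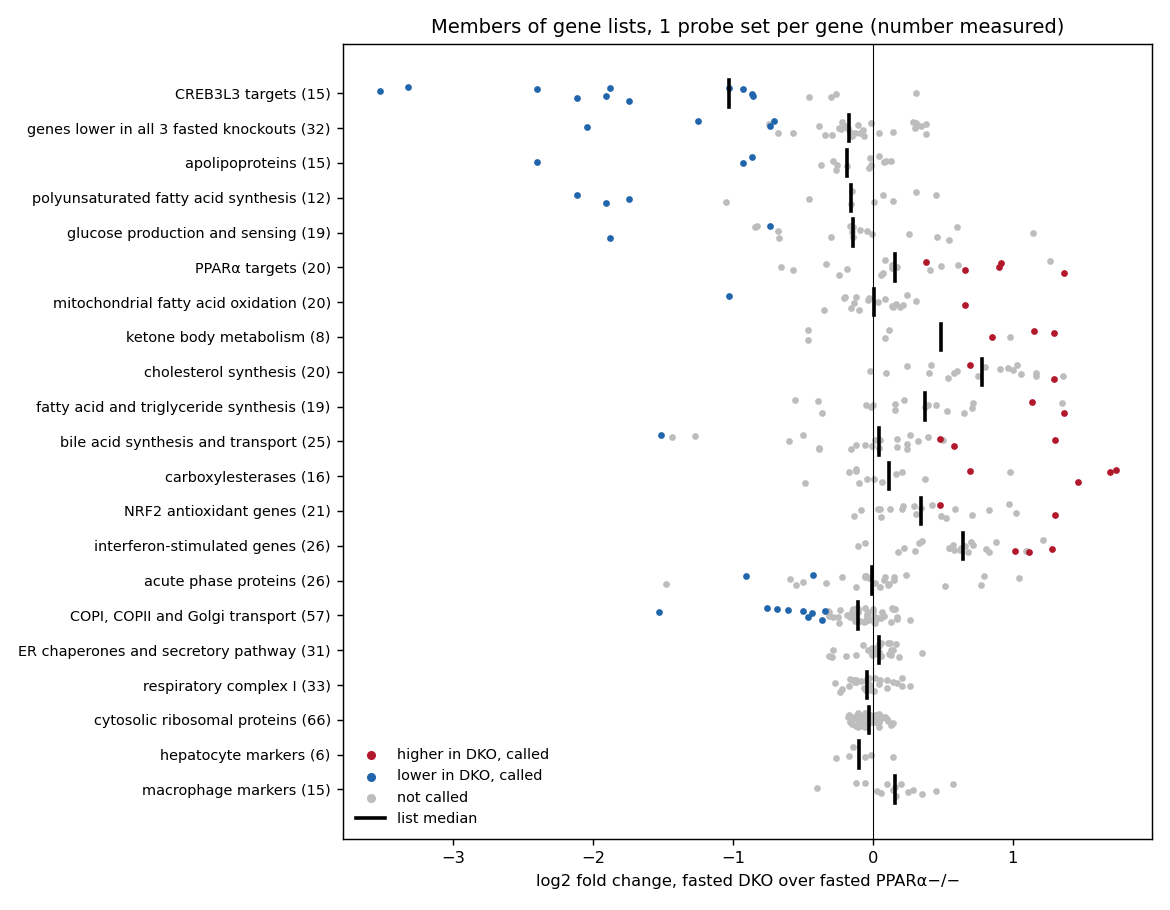
Log2 fold change of DKO over PPARα−/− for the measured members of 21 lists, 1 point per gene, with called genes in red (higher) or blue (lower) and the list median as a black line. CREB3L3 targets lie to the left with a median of -1.03, cholesterol synthesis and interferon-stimulated genes to the right with 0.78 and 0.64, and ribosomal proteins lie close to 0.

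The same loss of CREB3L3 was also made in fasted mice with PPARα, by 4 CREB3L3−/− against 4 WT livers, none of which enter the means compared above, although all 30 arrays set the error in the model. There 354 probe sets were called (1.67%). Of the 242 probe sets lower in DKO, 70 were also lower in CREB3L3−/−, which is 28.9% of the first set and 38.9% of the 180 lower in CREB3L3−/−. Of the 240 higher in DKO 11 were also higher, 4.58% of the first set and 6.32% of the 174 of the second. Over all 21218 probe sets the fold changes of these comparisons correlated at r = 0.316 (Spearman's rho 0.152), across probe sets and not replicates. Among the shared decreases, *Fabp2* was -3.32 (SE 0.25) without and -3.38 with PPARα, *Fads2* -2.11 and -2.12, and *Ranbp10*, chosen after its values were seen, -1.23 (SE 0.09) and -1.15. Other shared decreases had unequal sizes. *Mfsd2a* read 6.78 to 8.17 in CREB3L3−/− and 11.01 to 11.19 in WT livers, a larger fall than without PPARα. *Elovl5*, at 11.06 to 11.43 against 12.02 to 12.45, and *Hykk*, at 9.29 to 9.40 against 10.39 to 10.74, fell less than without PPARα.

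The difference of the CREB3L3 effect without and with PPARα (the interaction) was called for 192 probe sets (0.905%), of which 44 had an adjusted p under 0.05. *Rcan1* changed in the DKO alone, with 1.82 (SE 0.18) without and 0.09 with PPARα and an interaction of 1.73 (adjusted p = 0.00247). *Themis*, a T cell signalling gene at low level here, rose by 1.33 (SE 0.23) without PPARα and fell by 1.11 with it, an interaction of 2.44 (adjusted p = 0.000362). *Peg3*, an imprinted zinc finger gene, fell by 1.0 (SE 0.17) without PPARα and rose by 0.77 with it, an interaction of -1.77 (adjusted p = 0.000362). *Rfx4*, a transcription factor gene, read 5.65, 5.55, 5.70 and 5.12 in DKO and 3.98, 4.55 and 4.26 in PPARα−/−, with an interaction of 1.74 (adjusted p = 0.000362). *Ypel4* (-2.85, adjusted p = 0.0164), *Gadd45a* (2.75, adjusted p = 0.0472) and *Ptgfr* (1.58, adjusted p = 0.0484) also differed, as did *Meg3* (2.38, adjusted p = 0.0153). Of the 15 CREB3L3 targets 2 had a called interaction, *Apoa4* (1.33) and *Fgf21* (3.01), each with an adjusted p of 0.0557, and the dimmer probe set of *Apoa4* gave -0.31 (adjusted p = 0.927).

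**Figure D5:**
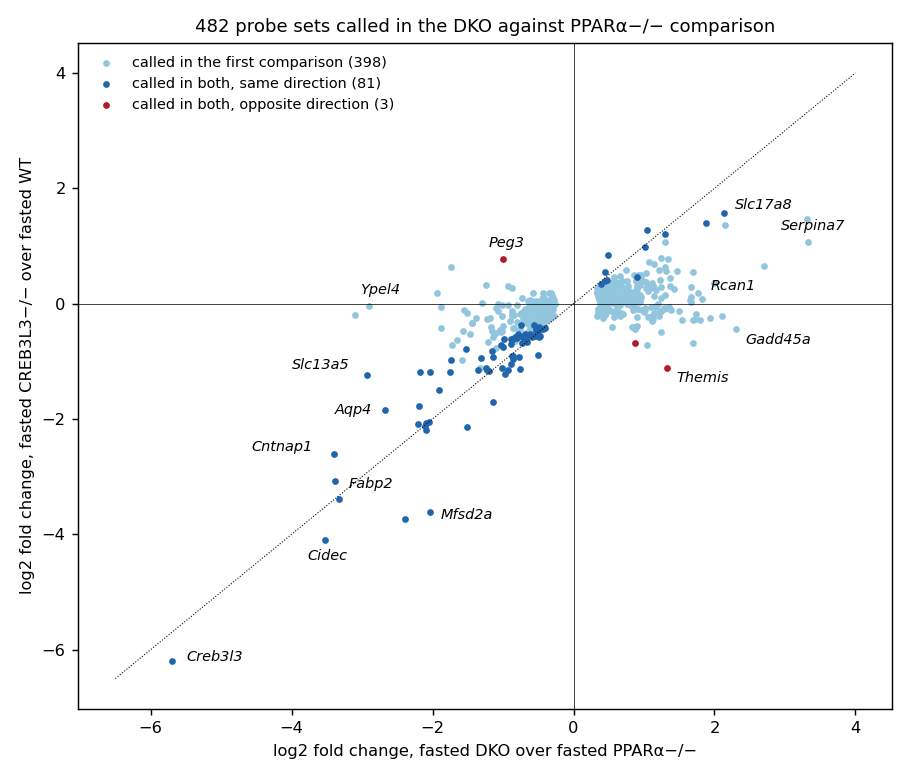
Log2 fold change of DKO over PPARα−/− against that of CREB3L3−/− over WT, both fasted, for the 482 probe sets called in the first comparison; the dotted line marks equal effects. Some decreases shared by both lie near the line and others, such as *Mfsd2a*, lie off it. Most increases lie near 0 on the vertical axis, and *Peg3* and *Themis* lie in opposite quadrants.

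On the ketogenic diet, 4 other DKO livers were compared with 3 other PPARα−/− livers, and 678 probe sets were called (3.2%). Of the 242 probe sets lower in the fasted DKO 44 were lower there too, 18.2% of the fasted and 9.67% of the 455 ketogenic decreases. Of the 240 higher ones 7 were, 2.92% of the fasted and 3.14% of the 223 ketogenic increases. The fold changes correlated at r = 0.128 (Spearman's rho 0.040) across probe sets. The difference of the effect between regimens was called for 461 probe sets (2.17%). *Serpina7* rose by 3.32 (SE 0.64) in the fasted state and differed by -0.45 on the diet (difference 3.77, adjusted p = 0.039). *Rcan1* (difference 2.27, adjusted p = 4.81e-05) and *Cxcl10* (2.09, adjusted p = 0.0403) also rose in the fasted state alone by this test, with -0.45 and -0.09 on the diet. *Hmgcs1* differed by 2.07 (adjusted p = 0.0183), with -0.78 on the diet. *Scarb1* fell in the fasted state and differed by 0.01 on the diet (difference -0.86, adjusted p = 0.00675), and *Cpt1a* fell by 1.03 fasted and by 0.35 on the diet (difference -0.68, adjusted p = 0.00675). *Slc1a4*, a neutral amino acid transporter, rose by 0.91 fasted and fell by 1.55 on the diet (difference 2.46, adjusted p = 0.000241). *Igf2bp3*, an RNA-binding protein of fetal tissue, was at 2.82 to 3.41 in all 7 fasted livers and rose by 4.17 on the diet, so its difference of -4.10 came from the diet.

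In all 3 comparisons, whose means share no array, 30 probe sets were called in the same direction, 29 of them lower (28 genes) and 1 higher. Besides *Creb3l3* the lower ones were 8 of the CREB3L3 targets (*Apoa4*, *Apoc2*, *Cidec*, *Cpt1a*, *Elovl2*, *Elovl5*, *Fabp2* and *Fads2*) and *Mfsd2a*, *Ldha*, *Aqp4*, *Cntnap1*, *Hykk* and *Tmed4*. Further ones, outside the rule for named genes, were *Ranbp10*, *Tor1b*, *Pcyt2*, which makes CDP-ethanolamine for phospholipid synthesis, and *Gpt2*, the mitochondrial alanine transaminase. *Ranbp10* read 8.00, 8.02, 7.91 and 8.19 in fasted DKO and 9.44, 9.15 and 9.18 in fasted PPARα−/− livers. *Tor1b*, an ATPase of the ER lumen, read 7.57, 7.76, 7.54 and 7.46 against 9.14, 8.80 and 8.73 (-1.31, SE 0.11). The only gene higher in all 3 was *St3gal4*, a sialyltransferase, which read 9.48, 9.20, 9.27 and 9.30 against 8.14, 8.62 and 8.48 (0.90, SE 0.12).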

How the data were processed

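Total RNA of single livers was hybridized to Affymetrix Mouse Gene 1.1 ST arrays, and the authors normalized the arrays by RMA in AffyPLM (software versions: not given in the sources used here). Hence the deposited unit is a log2 intensity for every probe set on every array. The methods name a remapped chip definition, whereas the identifiers are those of the manufacturer's transcript clusters, so probe sets were used as deposited. Of 35556 probe sets, 21218 carry 1 symbol in GEO's platform annotation, 1881 several and 12457 none, and 1386 genes have several probe sets. All 30 arrays were used, and the number of unused sample columns was 0.

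A model with 1 mean for each of the 8 groups was fitted to all 30 arrays in R 4.3.3 with limma 3.58.1 (lmFit and eBayes with an intensity trend, 22 residual and 3.47 prior degrees of freedom), and checked on simulated data. Calls used P under 0.001 and a fold beyond 1.2. P was adjusted by Benjamini-Hochberg within each comparison, across the whole array. P values and SEs use the spread between livers within the 8 groups, pooled over all 30 arrays, and the number of arrays limits the precision. Fold changes of dim probe sets are compressed by background.

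The members, gene lists and tests were chosen with earlier results of these data known. Genes named are the 12 largest increases and 12 largest decreases among called genes with groups that do not overlap, the study's CREB3L3 targets, *Creb3l3* and *Ppara*, up to 4 members of each list by lowest P, and up to 4 genes with the lowest P of the interaction and of the regimen difference. *Apob*, *Plin2*, *Msmo1*, *Srebf1*, *Cyp7a1*, *Hamp*, *Asns*, *BC018473*, *St3gal4* and other genes marked where named were chosen after their values were seen. The 48 lists hold 1007 genes, of which 895 were measured, 10 matches going through an older symbol or synonym, and 3 lists are the study's own. Members use the brightest probe set of a gene. The lists of transport genes and carboxylesterases and the motif TGACGTGG were added after seeing the data. A further window with that motif is not printed here.

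Alternatives were other sets of arrays, a replicate block, array weights, other variance models, centring and quantile normalization, filters, thresholds and leaving out each array. Python 3.11.15 with matplotlib 3.10.9 drew the figures.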

Additional observations from a re-analysis of the deposited data

Results flagged for a closer look

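Of 198 probe sets named or ranked by the naming rule, 9 had 1 fasted DKO liver far from the other 3, and chance gives about 1 in 20. Among called genes this liver was replicate 4 in 5 cases, with *Apoc2* at 11.14, *Rcan1* at 8.70, *Slc39a14* at 10.22, *Suclg2* at 10.68 and *Sult1c2* at 7.73.

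The CREB3L3 effect differed without and with PPARα in the fasted state for 10 genes of the naming rule, at an adjusted p under 0.05 of the interaction term. The effect without PPARα minus that with it, in log2 units, was 2.75 for *Gadd45a*, 0.97 for *Gstt1*, 1.66 for *Noct*, 1.58 for *Ptgfr*, 1.73 for *Rcan1*, 1.74 for *Rfx4* and 2.44 for *Themis*. The term was -1.77 for *Peg3*, -0.37 for *Rpl13a* (1 of its probe sets) and -2.85 for *Ypel4*.

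The effect without PPARα differed between fasting and the ketogenic diet at an adjusted p under 0.05 for 23 genes of the naming rule that were also called in the fasted comparison. The fasted minus the ketogenic effect was 1.82 for *Aacs*, 2.31 for *Abcc4*, 2.09 for *Cxcl10*, 0.77 for *Dgat2*, 2.87 for *Gadd45a*, 2.07 for *Hmgcs1* and 0.71 for *Mcee*. It was 1.41 for *Ptgfr*, 2.27 for *Rcan1*, 1.16 for *Rfx4*, 0.86 for *Sc5d*, 3.77 for *Serpina7*, 2.46 for *Slc1a4* and 1.60 for *Themis*. It was negative for *Cpt1a* at -0.68, *Creb3l3* at -0.86, *Elovl5* at -1.10, *Lrg1* at -1.31, *Peg3* at -2.28, *Scarb1* at -0.86, *Serpina3n* at -0.84, *Slc13a5* at -2.22 and *Tram2* at -1.13.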

How the results depend on the processing

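No called value of those recomputed changed its sign. The medians of several lists, all near 0, did with median centring or quantile normalization, among them mitochondrial fatty acid oxidation and coagulation and complement. Over all probe sets, the 593 calls of the fasted comparison without PPARα became 363 (187 higher, 176 lower) when the 7 arrays were fitted alone and 193 (99 higher, 94 lower) at a fold beyond 2. Of the 363 calls, 226 were among the 593. Of 74 calls of named genes recomputed with the compared groups alone, 33 were lost. They included *Serpina7*, *Gadd45a*, *Ptgfr*, *Hamp2*, *Serpinb1a*, *S100g* and *Mme*. Leaving out 1 array gave 286 to 677 calls, 125 to 331 of them higher and 161 to 346 lower, and 26 to 72 called list genes, against 54 with all arrays. Fitting the compared groups alone gave 241 calls on the ketogenic diet and 326 for the regimen difference. At a fold beyond 2 the counts were 118 for CREB3L3−/− against WT, 96 for the interaction, 163 for the diet, 247 for the regimen difference and 30 list genes. An adjusted p under 0.05 left 60 interaction calls, and array weights gave 83 list genes. With 1 probe set per gene, chosen after seeing the data, CREB3L3−/− against WT gave 311 calls and the interaction 160. Leaving out 1 array gave 383 to 452, 191 to 333, 389 to 1058 and 290 to 637 calls for CREB3L3−/− against WT, the interaction, the diet and the regimen difference. The share of lower genes with TGACGT, TGACGTCA and TGACGTGG ranged over 15.2% to 18.2%, 5.1% to 7.77% and 2.37% to 3.88%. With the replicate number as a block the fasted comparison gave 567 calls, 496 of them shared with the 593, and 51 list genes, with 2 of the PPARα targets and 1 of the carboxylesterases. Arrays of the same number correlated in their deviations at -0.00392, -0.111 and 0.0241. These values are too few to tell whether such arrays shared more than a number. Dim probe sets give compressed fold changes, which limits *Fgf21* and others near the array medians.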
